A study of Caenorhabditis elegans with 8 samples.

Results

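RNA-seq profiles of a strain lacking both CYP-36A1 and EGL-9, cyp-36A1(lf); egl-9(lf), were set against those of the wild type, to see which effects of egl-9 loss were still present in animals that also lacked CYP-36A1, and which genes lay below or above the wild-type level in those animals. This double mutant carried cyp-36A1(gk824636), a nonsense allele on chromosome I, and egl-9(sa307) on chromosome V. The wild type was N2. All 4 libraries of these strains were used, of 8 in the series. The egl-9(lf) strain, which carried sa307 and an intact cyp-36A1, defined the effects of egl-9 loss, and egl-9(lf) hif-1(lf) animals, which carried sa307 with hif-1(ia4), were used for levels only. There were 2 biological replicates per strain, each of about 150 whole hermaphrodites at the very start of adulthood, with no or 1 egg in the uterus, grown on Escherichia coli OP50 at 22.5 °C. Each gene was represented by 1 allele, and a cyp-36A1(lf) single mutant was not analysed here. The double mutant therefore differed from the wild type at both loci, and from egl-9(lf) at cyp-36A1 and at any other difference between the strains.

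EGL-9 is the prolyl hydroxylase that, when oxygen is available, marks the transcription factor HIF-1 for degradation through the von Hippel-Lindau protein VHL-1. Without EGL-9, HIF-1 accumulates and its target genes are transcribed in normal air, among them genes for sulfide and cysteine metabolism, cuticle and matrix enzymes, and feedback regulators of the pathway. CYP-36A1 is a cytochrome P450 enzyme whose gene is itself a HIF-1 target, and the study placed it upstream of the nuclear receptor NHR-46 in a branch of the pathway that affects egg laying, stress resistance and gene expression.

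Expected counts summed to between 11925027 and 22269111 per library, and between 17408 and 18283 gene IDs had counts. Levels are given in CPM, the count of a gene divided by its scaled library total and multiplied by 1000000, which compares strains for 1 gene and not genes with each other. A total of 21372 gene IDs with at least 1 rounded count in any library were tested. One model of all 8 libraries was fitted with edgeR's quasi-likelihood test, and every adjusted p below is from that test with Benjamini-Hochberg adjustment over all tested IDs. Genes were called where the adjusted p was under 0.05 and the difference was 2-fold or more. With 2 libraries per strain, the spread of each gene was estimated with help from all other genes.

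In the double mutant, 424 genes were higher than in the wild type (1.98% of those tested) and 1013 were lower (4.74%). The genes that were higher included regulators of the HIF-1 pathway, sulfide-handling enzymes, a cluster of nematode-specific peptides and intestinal proteases, while those that were lower included a propionate-breakdown enzyme, detoxification enzymes, the pud genes and sperm genes. Fitted log2 fold changes of the called genes reached 11.88 for higher and -9.84 for lower genes. Double-mutant and wild-type libraries did not overlap for all 424 and 1013 called genes, and for 51.6% of all tested genes. Lack of overlap therefore does not set 1 called gene apart from another. The counts depended on the libraries of these 2 strains: leaving out wild type replicate 1, wild type replicate 2 or double mutant replicate 1 left 180, 270 or 257 genes higher, and 438, 548 or 558 lower. Without double mutant replicate 2, 586 genes were lower. Leaving out a library of the other strains left 407 to 450 higher.

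The targeted genes were read first. egl-9 had 85.6 and 112 CPM in the double mutant, 87.6 and 101 CPM in egl-9(lf), 22.5 and 24.6 CPM in egl-9(lf) hif-1(lf), and 27.1 and 25.9 CPM in the wild type. The sa307 transcript was thus more abundant in both sa307 strains with an intact hif-1 than the egl-9 transcript in the wild type. The log2 fold change was 1.90 in the double mutant (SE 0.15, adjusted p = 9.0e-06), and the level does not report the loss of function. cyp-36A1 had 4.78 and 19.4 CPM in the double mutant, 29.4 and 54.99 CPM in egl-9(lf), 5.22 and 6.88 CPM in egl-9(lf) hif-1(lf), and 5.74 and 8.92 CPM in the wild type. The 2 double-mutant libraries lay on either side of the wild-type pair, and the difference did not pass the test (log2 fold change 0.74, SE 0.53, adjusted p = 0.43). nhr-46, which encodes the nuclear receptor placed downstream, had 35.9 and 40.2 CPM in the double mutant and 36.9 and 34.997 CPM in the wild type (log2 fold change 0.08, SE 0.12, adjusted p = 0.74). hif-1 had 128 and 143 CPM in the double mutant, against 186 and 188 CPM in the wild type (log2 fold change -0.46, SE 0.11, adjusted p = 0.018), a difference under 2-fold that missed the threshold without wild type replicate 1, wild type replicate 2 or double mutant replicate 1 (adjusted p = 0.15, 0.13 and 0.11).

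In egl-9(lf), 542 genes rose (2.54% of those tested) and 1340 fell (6.27%) against the wild type. Of these, 289 rises (53.32%) and 771 falls (57.54%) were also called in the same direction in the double mutant against the same wild-type libraries. With the adjusted p alone, which called 4.72% of tested genes higher and 7.47% lower in the double mutant, another 20 rises and 235 falls were in the same direction at under 2-fold, 1 rise and 3 falls were past the wild type at under 2-fold, and 220 rises and 323 falls had no detected difference from the wild type in the double mutant at any fold. Over all egl-9(lf) rises the median log2 fold change was 1.498 in the double mutant and 2.33 in egl-9(lf), and over all falls it was -1.12 in the double mutant and -1.43 in egl-9(lf), beside a median of 0 over all tested genes. Both comparisons used the same 2 wild-type libraries, so an error in those libraries enters both, and the persisting share cannot be read as a chance-corrected overlap. The persisting share of falls was smaller without any single library of the double mutant or the wild type. The share of rises was smaller without either double-mutant library and changed little without either wild-type library. The numbers of persisting genes also depended on single libraries. Without wild type replicate 1, 132 rises persisted. Without wild type replicate 1 or 2, or double mutant replicate 1 or 2, 329, 411, 446 and 442 falls persisted.

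**Figure D1:**
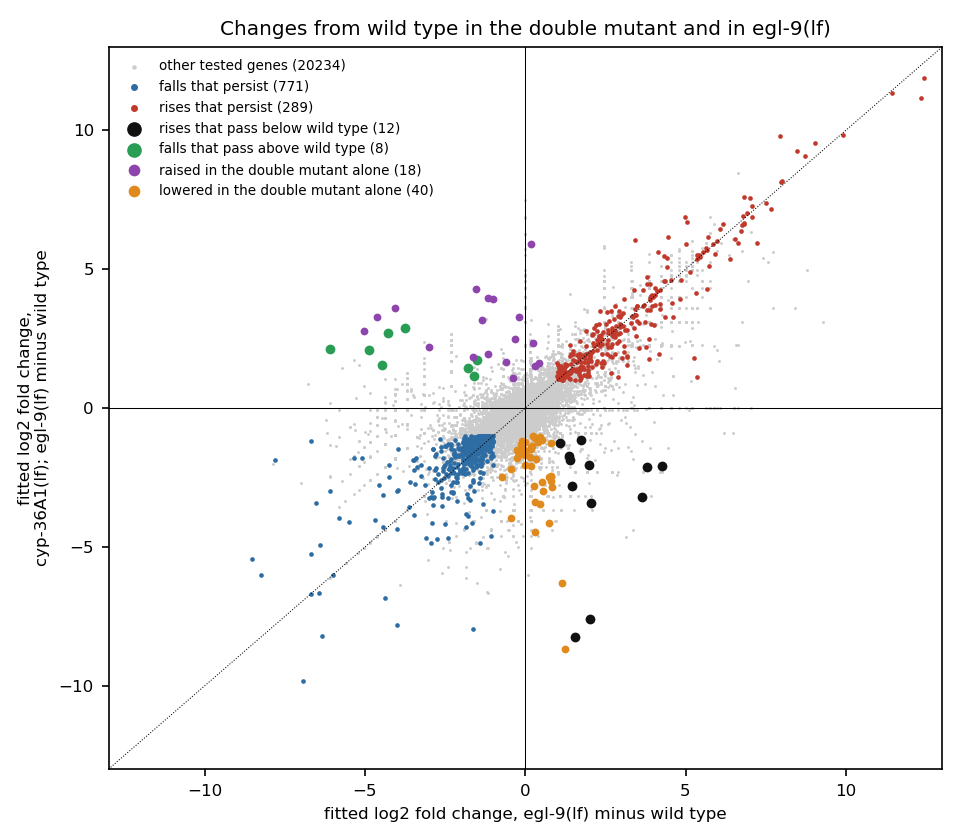
Fitted log2 fold change of each tested gene in the double mutant against the wild type (vertical axis) and in egl-9(lf) against the wild type (horizontal axis); each point is a gene, coloured by class, and the dotted diagonal marks equal changes. The 289 persisting rises and 771 persisting falls lie in the upper right and lower left, and the 12 rises that pass below and 8 falls that pass above the wild type lie in the other quadrants. Both axes share the wild-type libraries.

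Several regulators and classic targets of HIF-1 stayed high without CYP-36A1. Of 12 listed pathway genes and classic targets, 6 were higher in the double mutant than in the wild type and none was lower. Over all tested genes 1.98% were higher and 4.74% lower. The median log2 fold change of the list was 1.32. rhy-1, which encodes a membrane protein that holds HIF-1 activity down through CYSL-1, had 350 and 406 CPM in the double mutant, 347 and 401 CPM in egl-9(lf), 11.4 and 9.53 CPM in egl-9(lf) hif-1(lf), and 6.14 and 9.004 CPM in the wild type. The libraries of the double mutant and of egl-9(lf) covered nearly the same range, and both were far above the other strains (51.5-fold above the wild type in the double mutant, log2 5.69, SE 0.19, adjusted p = 4.4e-09). nhr-57, a nuclear receptor gene long used as a HIF-1 reporter, had 142.3 and 148 CPM in the double mutant, against 2.66 and 4.08 CPM in the wild type (log2 fold change 5.49, SE 0.19, adjusted p = 6.7e-09). cysl-1, whose product binds EGL-9 and inhibits it, had 94.2 and 101.7 CPM in the double mutant, against 24.97 and 23.5 CPM in the wild type. As for every called gene, the groups did not overlap for either gene, and the cysl-1 log2 fold change was 2.01 (SE 0.14, adjusted p = 3.1e-06). F22B5.4, a HIF-1 target of unassigned function, rose by a log2 fold change of 4.46, and phy-2, which encodes a prolyl 4-hydroxylase subunit for collagen, by 2.68. For none of these genes did the difference between the double mutant and egl-9(lf) pass the test, with an adjusted p of 0.11 for F22B5.4 and larger for the others.

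Of the genes for sulfide and cysteine metabolism, 6 of 11 members were higher in the double mutant and 1, cbs-2, was lower (median log2 fold change 1.11). The shares over all tested genes were 1.98% and 4.74%. sqrd-1 encodes sulfide:quinone oxidoreductase, the mitochondrial enzyme that begins sulfide oxidation. It had 231 and 255 CPM in the double mutant, 304 and 361 CPM in egl-9(lf), and 3.07 and 4.25 CPM in the wild type (log2 fold change against the wild type 6.10, SE 0.20, adjusted p = 4.4e-09). cysl-2, which encodes a cyanoalanine synthase that detoxifies cyanide, had 1022 and 872 CPM in the double mutant, against 16.483 and 22.5 CPM in the wild type (log2 fold change 5.62, SE 0.18, adjusted p = 4.4e-09). Double-mutant libraries were above every wild-type library for both genes, and the lower sqrd-1 level in the double mutant than in egl-9(lf) did not pass the test (log2 fold change -0.45, adjusted p = 0.23). ethe-1, the gene of the persulfide dioxygenase, rose by a log2 fold change of 2.63, cysl-3 by 2.24, and cdo-1, which encodes cysteine dioxygenase, by 2.71. cdo-1 had 74.8 and 61.7 CPM in the double mutant, 72.5 and 89.3 CPM in egl-9(lf), and 9.53 and 11.6 CPM in the wild type. cbs-1, which encodes a cystathionine beta-synthase, showed the smallest rise, with 66.1 and 67.2 CPM in the double mutant and 26.6 and 35.8 CPM in the wild type (log2 fold change 1.11, SE 0.24, adjusted p = 0.011), and its call was lost without wild type replicate 1 (adjusted p = 0.17), double mutant replicate 1 (0.054) or double mutant replicate 2 (0.062).

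Other persisting rises were enzymes of metabolism, iron storage and detoxification. pck-1, which encodes phosphoenolpyruvate carboxykinase, the enzyme that commits carbon to gluconeogenesis, had 1143 and 998 CPM in the double mutant, against 90.1 and 93.2 CPM in the wild type (11.7-fold, log2 3.55, SE 0.10, adjusted p = 4.1e-09). ftn-1, which encodes the iron-storage protein ferritin, had 357 and 241 CPM in the double mutant, 357 and 220 CPM in egl-9(lf), 146 and 103 CPM in egl-9(lf) hif-1(lf), and 15.4 and 8.24 CPM in the wild type (log2 fold change 4.61, SE 0.33, adjusted p = 2.7e-06). The iron transporter gene smf-3 moved the other way, with 1.34 and 0.808 CPM in the double mutant and 6.32 and 7.73 CPM in the wild type (log2 fold change -2.65, SE 0.39, adjusted p = 0.0013). Without hif-1, ftn-1 was still above the wild type in both libraries, while pck-1, at 39.4 and 40.7 CPM, was below it. gst-19, a glutathione S-transferase gene, had 260 and 254 CPM in the double mutant, against 0.768 and 1.104 CPM in the wild type (log2 fold change 8.16, SE 0.30, adjusted p = 1.0e-08). rips-1, which encodes a methyltransferase-like protein, had 718 and 680 CPM in the double mutant, against 3.43 and 5.27 CPM in the wild type (log2 fold change 7.39, SE 0.30, adjusted p = 1.7e-08). The groups were widely separated for both. The aspartyl protease genes asp-5 and asp-6, which are highly transcribed in the intestine, rose by 1.78 and 1.48 on the log2 scale, and asp-5 had 1793 and 1557 CPM in the double mutant, against 489 and 484 CPM in the wild type.

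Flavin-containing monooxygenases were represented by fmo-2 and fmo-4, the 2 of 5 members that rose. fmo-2 had 7.45 and 7.46 CPM in the double mutant, 4.16 and 3.98 CPM in egl-9(lf), 0.126 and 0.162 CPM in egl-9(lf) hif-1(lf), and 0.135 and 0.0849 CPM in the wild type. The double mutant was above egl-9(lf) (log2 fold change 0.87, adjusted p = 0.040), and above the wild type by a log2 fold change of 5.90 (SE 0.37, adjusted p = 4.0e-07). fmo-4 rose by 1.06 on the log2 scale, with no detected difference from egl-9(lf) (log2 fold change -0.33, adjusted p = 0.70). Without double mutant replicate 1, fmo-4 was under 2-fold and another member was called lower. Among 15 small and inducible heat shock genes, 4 were higher and 1 was lower than in the wild type, beside 1.98% and 4.74% of all tested genes. Without either wild-type library or double mutant replicate 1, 2 were higher. hsp-12.3 had 10.998 and 10.9 CPM in the double mutant, against 1.08 and 1.19 CPM in the wild type (log2 fold change 3.28, SE 0.24, adjusted p = 4.2e-06), and sip-1, a small heat shock protein gene of embryos, rose by 1.13. The near-identical genes F44E5.5 and F44E5.4 were called in opposite directions: F44E5.5 had 0.771 and 1.99 CPM in the double mutant and no counts in the wild type, while F44E5.4 had no counts in the double mutant and 2.30 and 4.33 CPM in the wild type. How the reads of this pair were divided is uncertain, and neither call was firm: that of F44E5.4 was lost without any single library of the 2 strains (adjusted p up to 0.18), and that of F44E5.5 without either wild-type library or double mutant replicate 2 (adjusted p up to 0.15).

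Several persisting rises were silent or almost silent in the wild type. nspe-6, a member of a nematode-specific peptide family, had 30.9 and 25.4 CPM in the double mutant, 42.3 and 41.2 CPM in egl-9(lf), and no counts in the wild type, so that it was at least 321-fold higher in the double mutant when 3 counts over both wild-type libraries are taken as the limit (adjusted p = 1.6e-07). nspe-3 was at least 222-fold higher on the same limit, and the collagen gene col-78 at least 77.6-fold higher. MTCE.33, C37C3.10 and the RefSeq pseudogene T05B4.4 also had no wild-type counts, with limits of 197, 74.7 and 63.6. C37C3.10 had 6.78 and 6.402 CPM in the double mutant, 1.87 and 1.80 CPM in egl-9(lf), and was higher in the double mutant than in egl-9(lf) (log2 fold change 1.84, adjusted p = 0.0014). The MTCE.33 ID was not matched to a RefSeq gene, and its adjusted p was 0.12 with robust estimation of the spread. For nspe-2 and T05B4.13, each with 1 to 3 wild-type counts in all, the count ratios were 683 (95% exact binomial interval 122 to 27000) and 686 (189 to 5670), intervals that cover counting error only.

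Persisting rises were often neighbours in chromosome order. This order held only the 18071 tested protein-coding genes placed on the RefSeq assembly, so untested genes and genes of other types between neighbours were passed over. Of 281 protein-coding members placed on the RefSeq assembly, 69 (24.6%) had another member as an immediate neighbour, beside 3.0% of all placed genes that had a member of the class as a neighbour. The longest run held 6 genes on chromosome II, Y38E10A.9 and nspe-4, nspe-6, nspe-3, nspe-2 and nspe-1. Of the 8 tested nspe genes 6 were higher, and their summed level was 155.5 and 126.7 CPM in the double mutant, against 2.122 and 1.359 CPM in the wild type. Other runs were W07A12.4, col-78, oac-54 and rhy-1 on chromosome II, R08E5.1, rips-1 and cysl-3 on chromosome V, asp-6, asp-12 and asp-5 on chromosome V, and skr-13, skr-9 and skr-8 on chromosome IV. The last belong to the Skp1-related genes, adaptors of ubiquitin ligases, of which 8 of 20 (40%) were higher, beside 1.98% of all tested genes. The F-box B genes, which encode the substrate receptors of such ligases, had 13 of 108 (12%) higher and none lower. Neither count was firm. Of the Skp1-related genes 2, 3 and 4 were higher without wild type replicate 1, double mutant replicate 1 and wild type replicate 2. Of the F-box B genes none was higher without wild type replicate 1, 2 without wild type replicate 2 or double mutant replicate 1, and 5 without double mutant replicate 2. These were mostly low genes: skr-8 had 3.03 and 2.49 CPM in the double mutant, against 0.0452 and 0.0849 CPM in the wild type (count ratio 47.2, 95% exact binomial interval 12.7 to 395), and the summed level of all skr genes was 489.9 and 437.0 CPM in the double mutant and 416.9 and 417.1 CPM in the wild type. Some members of these families are similar in sequence, so the division of their reads is uncertain.

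**Figure D2:**
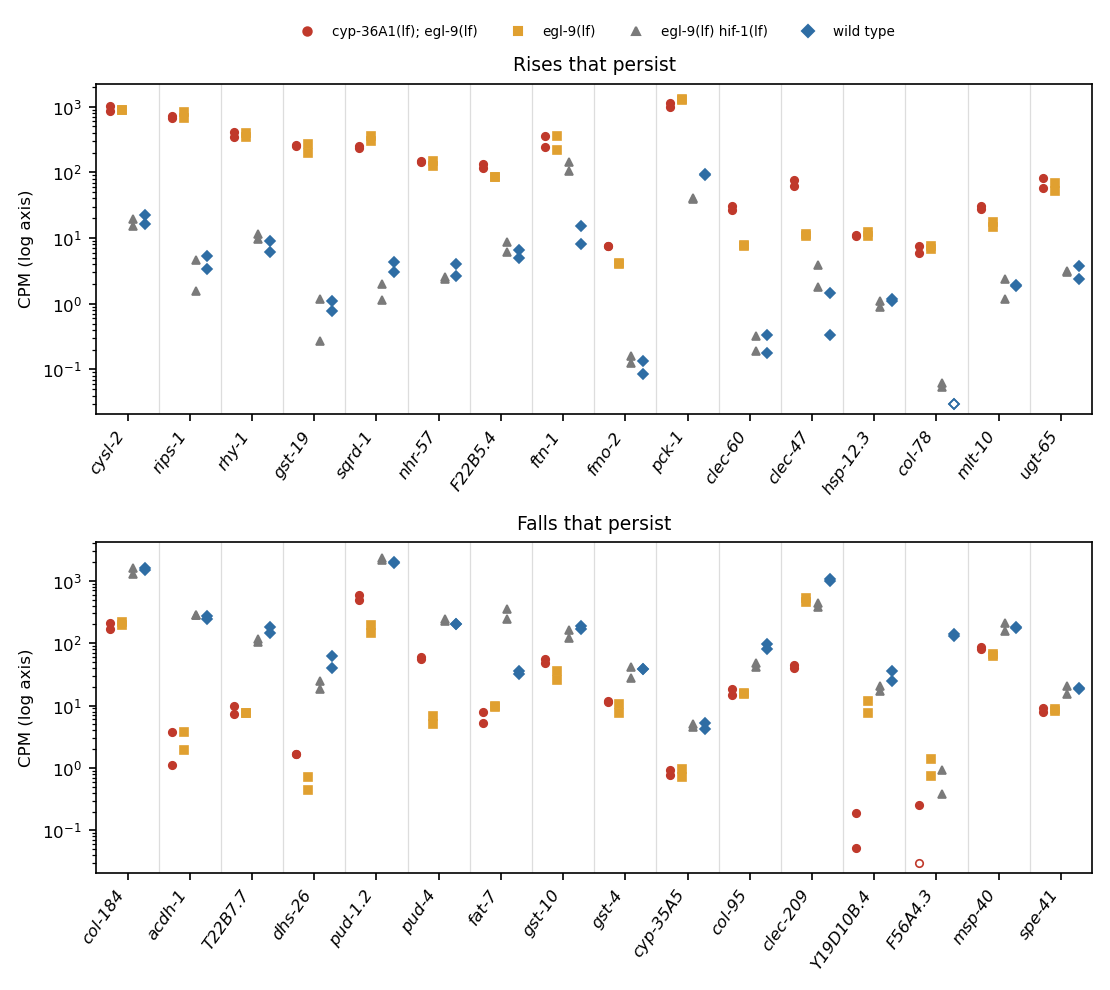
CPM on a log axis for selected persisting rises and persisting falls in each library, with the strains in the order double mutant, egl-9(lf) alone, with hif-1(lf) added, and wild type, with 1 point per library; open markers at the lower edge are libraries with no counts. rhy-1 sits at 350 and 406 CPM in the double mutant and at 6.14 and 9.004 CPM in the wild type, and acdh-1 at 3.75 and 1.12 CPM against 275 and 240 CPM.

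Persistence was not all or none. Among the 289 persisting rises, 21 were lower in the double mutant than in egl-9(lf) and 11 were higher at an adjusted p under 0.05, where 0.903% and 0.664% of tested genes were called lower and higher by that rule. far-3, which encodes a fatty acid and retinol binding protein, had 17.3 and 19.95 CPM in the double mutant, 335 and 378 CPM in egl-9(lf), and 8.53 and 8.83 CPM in the wild type. It was called a persisting rise at a 2.14-fold difference (SE 0.16 on the log2 scale, adjusted p = 0.0011), yet was 4.26 below egl-9(lf) on the log2 scale, with all 3 strains apart. The C-type lectin gene clec-52 had 8.84 and 8.20 CPM in the double mutant, 94.6 and 96.3 CPM in egl-9(lf), and 2.30 and 2.72 CPM in the wild type, the same ordering. A smaller loss was seen for the metallothionein gene mtl-1, which had 12.9 and 12.1 CPM in the double mutant, 26.3 and 24.6 CPM in egl-9(lf), and 0.316 and 0.255 CPM in the wild type, for the nitrilase gene nit-1, with a log2 fold change against the wild type of 3.28 in the double mutant and 4.34 in egl-9(lf), and for the secreted endoribonuclease gene endu-2, with 1.80 and 3.01.

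In the other direction, 2 C-type lectin genes were higher in the double mutant than in egl-9(lf), where they were already raised. clec-60 had 26.8 and 30.3 CPM in the double mutant, 7.53 and 7.96 CPM in egl-9(lf), 0.189 and 0.325 CPM in egl-9(lf) hif-1(lf), and 0.181 and 0.340 CPM in the wild type (log2 fold change 6.87 against the wild type, SE 0.29, adjusted p = 2.2e-08, and 1.88 against egl-9(lf), adjusted p = 4.2e-05). clec-47 had 76.1 and 63.0 CPM in the double mutant, 11.5 and 10.8 CPM in egl-9(lf), and 1.45 and 0.340 CPM in the wild type, and exceeded egl-9(lf) by 2.64 on the log2 scale (adjusted p = 6.6e-05). Double-mutant libraries lay above those of egl-9(lf), and both above the wild type, for either gene. F46C5.1 and Y102A11A.5 followed the same order, at 1.16 and 1.66 above egl-9(lf) on the log2 scale.

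The persisting falls were led by metabolic genes and by chromosome V genes that were nearly silent in every strain carrying sa307. acdh-1, which encodes the acyl-CoA dehydrogenase of the propionate shunt, had 3.75 and 1.12 CPM in the double mutant, 3.80 and 1.95 CPM in egl-9(lf), 281 and 284 CPM in egl-9(lf) hif-1(lf), and 275 and 240 CPM in the wild type. Both sa307 strains with intact hif-1 were low, and the wild type and egl-9(lf) hif-1(lf) were high. The log2 fold change was -6.67 in the double mutant against the wild type (SE 0.31, adjusted p = 6.7e-08). nhr-68, which encodes a nuclear receptor that activates acdh-1, had 12.7 and 11.9 CPM in the double mutant, against 27.6 and 33.04 CPM in the wild type (log2 fold change -1.29, SE 0.19, adjusted p = 0.0015). dhs-26, a short-chain dehydrogenase gene, fell by 4.94 on the log2 scale and the collagen gene col-184 by 3.02, with 208 and 167 CPM for col-184 in the double mutant, against 1469 and 1572 CPM in the wild type. fat-7, which encodes a stearoyl-CoA desaturase, had 7.91 and 5.28 CPM in the double mutant, 9.58 and 9.99 CPM in egl-9(lf), 244 and 349 CPM in egl-9(lf) hif-1(lf), and 35.6 and 31.9 CPM in the wild type (log2 fold change -2.34, SE 0.22, adjusted p = 3.0e-05). For fat-7 the wild type lay between the sa307 strains with intact hif-1 and the sa307 strain without it.

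F56A4.3, on chromosome V, had 0.257 and 0 CPM in the double mutant, 1.39 and 0.751 CPM in egl-9(lf), 0.943 and 0.379 CPM in egl-9(lf) hif-1(lf), and 139 and 131 CPM in the wild type (log2 fold change -9.84, SE 0.36, adjusted p = 7.6e-09). irld-35 and irld-53, which encode receptor L-domain proteins, and srbc-15, a chemoreceptor-family member that RefSeq lists as a pseudogene, are all on chromosome V. They were likewise at no more than 2.33 CPM in any library with sa307. In the wild type, irld-35 had 32.3 and 39.2 CPM, irld-53 had 21.1 and 34.3 CPM and srbc-15 had 9.21 and 13.4 CPM. sa307 is on the same chromosome, so its effect and that of strain differences linked to it cannot be told apart for these genes. Y19D10B.4, a RefSeq pseudogene also on chromosome V, differed among these strains, with 0.0514 and 0.186 CPM in the double mutant, 7.66 and 11.9 CPM in egl-9(lf), 17.04 and 20.3 CPM in egl-9(lf) hif-1(lf), and 24.97 and 35.3 CPM in the wild type (log2 fold change -7.95, SE 0.45, adjusted p = 2.3e-07). clec-209, a C-type lectin gene, had 44.9 and 39.5 CPM in the double mutant, 461 and 520 CPM in egl-9(lf), 373 and 437 CPM in egl-9(lf) hif-1(lf), and 1063 and 980 CPM in the wild type. Both genes were thus lower in egl-9(lf) than in the wild type. They were lower still in the double mutant, clec-209 by 3.54 on the log2 scale (adjusted p = 2.5e-08) and Y19D10B.4 by 6.33 (adjusted p = 2.5e-05). clec-209 is also on chromosome V, so for both genes the effect of sa307 and that of linked strain differences cannot be told apart. In all, 8 of the 771 persisting falls were lower in the double mutant than in egl-9(lf) and 16 were higher at an adjusted p under 0.05, beside 0.903% and 0.664% of tested genes.

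The pud genes, named for proteins raised in daf-2 insulin receptor mutants, showed a partial return. All 5 were called lower in the double mutant than in the wild type. pud-1.2 had 491 and 585 CPM in the double mutant, 145 and 198 CPM in egl-9(lf), 2342 and 2182 CPM in egl-9(lf) hif-1(lf), and 1932 and 1981 CPM in the wild type. pud-4 had 59.7 and 55.4 CPM in the double mutant, 5.003 and 6.76 CPM in egl-9(lf), 245 and 226 CPM in egl-9(lf) hif-1(lf), and 199 and 200 CPM in the wild type. Double-mutant libraries stood between those of egl-9(lf) and the wild type for both genes, with log2 fold changes against the wild type of -1.86 for pud-1.2 (SE 0.14, adjusted p = 3.3e-06) and -1.79 for pud-4 (SE 0.12, adjusted p = 1.9e-06). The 5 genes formed a run on chromosome V, and only 1 other run of persisting falls was as long. pud-2.1 and pud-2.2 had the same values in these data, as near-identical copies would, and their separate levels are uncertain. In the order of tested protein-coding genes, 127 of 722 placed persisting falls (17.6%) had another as immediate neighbour. Of all placed genes, 7.69% had a member of the class as a neighbour.

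Sperm genes were lower in the double mutant. Of 13 listed sperm genes 7 were lower and none was higher, beside 4.74% and 1.98% of all tested genes, with a median log2 fold change of -1.19. Their summed level was 163.5 and 189.6 CPM in the double mutant, against 255.4 and 269.4 CPM in the wild type. Of 34 spe genes, which act in sperm formation and function, 14 were lower. The counts were 3, 4 and 2 listed sperm genes and 6, 6 and 7 spe genes without wild type replicate 1, wild type replicate 2 and double mutant replicate 1. In the fit without double mutant replicate 2, 8 spe genes were lower. Of 35 genes for major sperm proteins, the cytoskeletal proteins of crawling nematode sperm, 11 were called lower in the double mutant and 26 in egl-9(lf), and their summed level was 2242 and 1878 CPM in the double mutant, 1565 and 1712 CPM in egl-9(lf), 3554 and 4891 CPM in egl-9(lf) hif-1(lf), and 3891 and 3960 CPM in the wild type. Many major sperm protein genes are nearly identical, so the single calls are uncertain and the sum is the safer value. Of the sperm markers 3 of 8 were lower in the fit of all libraries. The number called lower among the major sperm protein genes and among the sperm markers rose in some fits with a library left out and fell in others. Of the markers for intestine, body-wall muscle, neurons, hypodermis, pharynx, germ line and embryo none was called in either direction by edgeR or DESeq2. At an unadjusted p under 0.05 there were 5 of 7 germ line, 3 of 6 muscle and 2 of 5 pharynx markers, 1 each for intestine, hypodermis and embryo, and 0 for neurons, beside 25.9% of all tested genes. Summed sperm markers were at 548.2 and 450.5 CPM in the double mutant, against 911.1 and 955.1 CPM in the wild type. In whole animals, fewer cells of a type and less RNA per cell cannot be told apart, and the part of the lower sperm RNA in the other falls was not tested. Genes on the X chromosome made up 4.15% of persisting falls (32 of 771), and 14% of tested genes.

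Levels in egl-9(lf) hif-1(lf) were compared as a description. The mean CPM in that strain was nearer the wild-type mean than the mean of the cyp-36A1(lf) double mutant for 283 of the 289 persisting rises and 724 of the 771 persisting falls. Nearness was taken in CPM and not on the log2 scale, so a rise that stayed several-fold above the wild type could count as nearer it, as ftn-1 did. The share over all tested genes was not computed, so these counts are not a measure of dependence on hif-1.

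Among the 220 rises and 323 falls with no detected difference from the wild type were lysozyme genes. lys-7, a lysozyme gene of the intestinal immune response, had 34.02 and 28.6 CPM in the double mutant, 215 and 274 CPM in egl-9(lf), and 22.1 and 25.2 CPM in the wild type (log2 fold change against the wild type 0.41, SE 0.23, adjusted p = 0.28). ilys-5, an invertebrate-type lysozyme gene, had 622 and 512 CPM in the double mutant, 115 and 147 CPM in egl-9(lf), and 540 and 564 CPM in the wild type (log2 fold change 0.04, SE 0.13, adjusted p = 0.92). The double-mutant libraries of ilys-5 spanned the wild-type pair, and those of lys-7 lay just above it. Of 155 tested col- cuticle collagen genes, 9 were higher (5.81%) and 9 lower (5.81%) in the double mutant, beside 1.98% and 4.74% of all tested genes. The lower share was thus near that of all genes. In egl-9(lf) 40 had been higher and 10 lower, beside 2.54% and 6.27% of all tested genes. In the double mutant 14 were lower than in egl-9(lf), beside 0.777%. Without wild type replicate 1, wild type replicate 2 and double mutant replicate 1, 2, 3 and 4 were higher than in the wild type, and without double mutant replicate 2, 5 were lower. No vitellogenin gene, of the 6 tested, which encode yolk proteins, was called at 2-fold in the double mutant by edgeR or DESeq2. In egl-9(lf) 3 were called lower. In the double mutant 5 had an unadjusted p under 0.05, beside 25.9% of all tested genes, and vit-3 was lower by 0.76 on the log2 scale (SE 0.07, adjusted p = 2.6e-05).

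Beyond the return to wild type, 12 egl-9(lf) rises lay below the wild type in the double mutant, and 8 egl-9(lf) falls lay above it. By the rule these genes changed sides, so they differ between the double mutant and egl-9(lf) by construction. irg-5, an infection response gene, had 7.298 and 6.53 CPM in the double mutant, 586 and 547 CPM in egl-9(lf), 23.3 and 24.6 CPM in egl-9(lf) hif-1(lf), and 30.4 and 28.03 CPM in the wild type. Double-mutant levels were the lowest of the 4 strains and egl-9(lf) levels the highest (log2 fold change -2.08 against the wild type, SE 0.13, adjusted p = 9.7e-07). T24B8.5, named sysm-1 in RefSeq and used as an intestinal reporter of immune activation, had 1.75 and 2.18 CPM in the double mutant, 76.5 and 96.0 CPM in egl-9(lf), 13.5 and 28.2 CPM in egl-9(lf) hif-1(lf), and 20.5 and 21.5 CPM in the wild type (log2 fold change for sysm-1 -3.42, SE 0.36, adjusted p = 8.9e-05). The collagen gene col-135 had 4.52 and 3.05 CPM in the double mutant, 75.5 and 69.9 CPM in egl-9(lf), and 28.1 and 24.97 CPM in the wild type (log2 fold change -2.80, SE 0.23, adjusted p = 1.0e-05). Like irg-5, neither gene overlapped between the double mutant and any other strain.

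The remaining rises that passed below were lower in level or closer to the threshold. scl-24, which encodes a secreted cysteine-rich protein of the SCP family, had no counts in the double mutant, 6.69 and 6.46 CPM in egl-9(lf), and 2.30 and 2.12 CPM in the wild type, so that it was at least 26.6-fold lower in the double mutant with 3 counts over both libraries as the limit (adjusted p = 0.00023). D2063.1 also had no counts in the double mutant, with 1.63 and 1.104 CPM in the wild type (at least 17.1-fold lower). The cytochrome P450 gene cyp-33C8 was lower by 1.89 on the log2 scale and R03G8.3 by 1.71. The other 5 were less firm. Calls of drd-50, F49F1.7, cyp-13B1 and the C-type lectin gene clec-66 were lost without any single library of the 2 strains, with adjusted p up to 0.16, 0.14, 0.34 and 0.12, and that of srlf-35 without wild type replicate 1 (adjusted p = 0.06). In the fit without wild type replicate 1, 6 genes passed below.

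Among the falls that passed above the wild type, amt-1, which encodes an ammonium transporter, had 21.9 and 22.6 CPM in the double mutant, 0.121 and 0.225 CPM in egl-9(lf), 6.79 and 11.3 CPM in egl-9(lf) hif-1(lf), and 3.39 and 3.48 CPM in the wild type (log2 fold change 2.70 against the wild type, SE 0.23, adjusted p = 1.3e-05). T19H12.6 had 15.6 and 11.7 CPM in the double mutant, 0.181 and 0.0751 CPM in egl-9(lf), 1.51 and 1.52 CPM in egl-9(lf) hif-1(lf), and 1.58 and 2.38 CPM in the wild type (log2 fold change 2.86, SE 0.25, adjusted p = 1.3e-05). Both were lowest in egl-9(lf) and highest in the double mutant. The rule of this class sets that order against the wild type, and genes were named here only where double-mutant and wild-type libraries did not overlap. ZK896.5 had 13.9 and 17.9 CPM in the double mutant, against 4.47 and 5.18 CPM in the wild type (log2 fold change 1.74, SE 0.20, adjusted p = 0.00018). The other 5 lost their calls in at least 1 fit with a library left out. These were the glutathione S-transferase gene gst-29 (without any library of the 2 strains, adjusted p up to 0.17), C17B7.10 and C17B7.3 (without either wild-type library or double mutant replicate 1, up to 0.13 and 0.16), C04E12.2 (without wild type replicate 1, 0.078, or double mutant replicate 1, 0.051) and T28A11.19 (without wild type replicate 1, 0.064). The number of falls that passed above was 4 without wild type replicate 1, egl-9(lf) replicate 2 or double mutant replicate 1, and 5 without wild type replicate 2 or egl-9(lf) replicate 1.

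**Figure D3:**
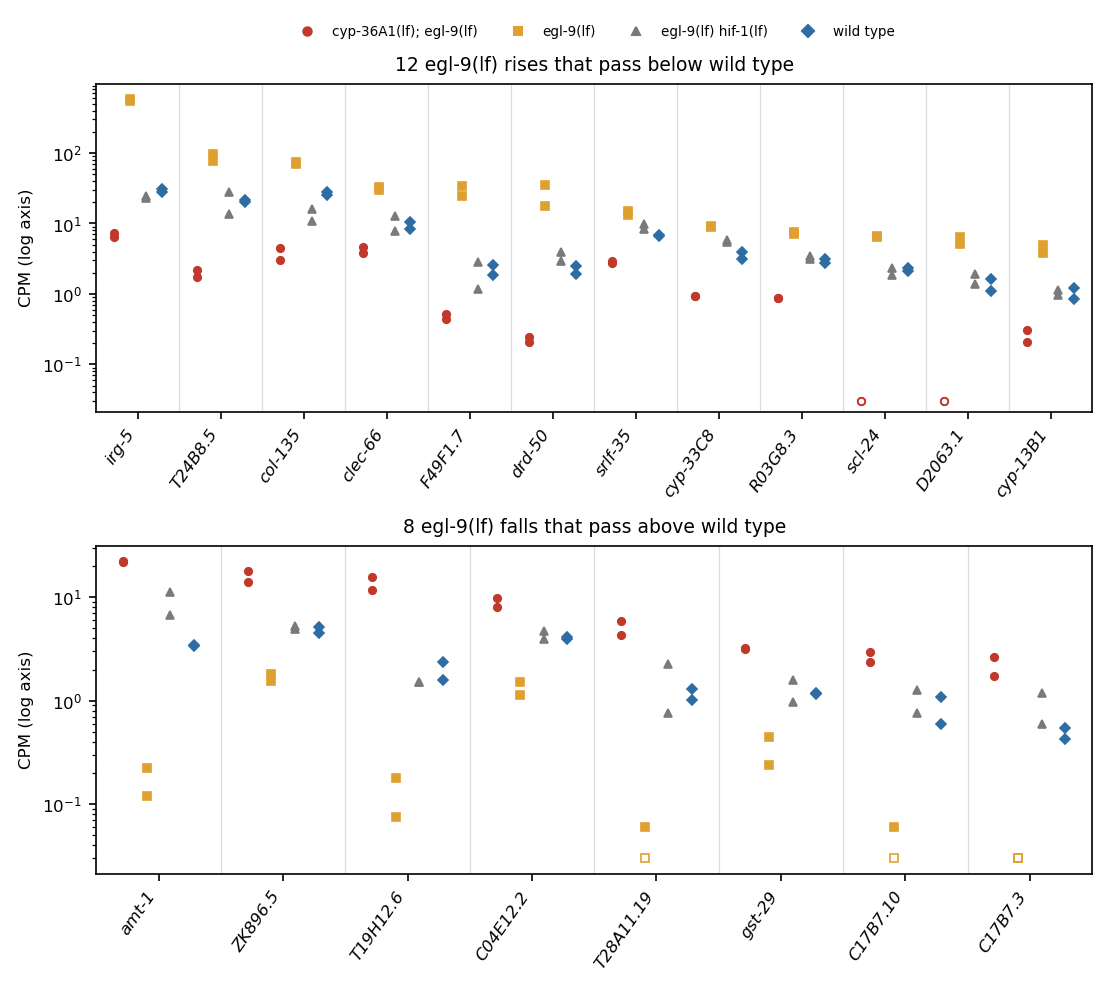
CPM on a log axis for the 12 egl-9(lf) rises that passed below the wild type and the 8 egl-9(lf) falls that passed above it, by library, with the strains in the order double mutant, egl-9(lf) alone, with hif-1(lf) added, and wild type; open markers at the lower edge are libraries with no counts. irg-5 stands at 7.298 and 6.53 CPM in the double mutant and 586 and 547 CPM in egl-9(lf), with the wild type between them, and amt-1 shows the opposite order.

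Some genes differed from the wild type in the double mutant without a detected change in egl-9(lf). Of the 424 genes that were higher and the 1013 that were lower than in the wild type, 135 and 242 were not among the egl-9(lf) rises and falls, and for 111 and 183 egl-9(lf) was not called against the wild type at any fold. The stricter class of genes called against both the wild type and egl-9(lf), with egl-9(lf) itself not different from the wild type at an adjusted p under 0.05, held 18 raised and 40 lowered genes, where 0.505% of tested genes were higher and 0.777% lower in the double mutant than in egl-9(lf). A p that missed the threshold in egl-9(lf) does not show that the gene was unchanged there. Chromosome V held 11 of the 18 raised and 19 of the 40 lowered genes, and 23.6% of tested genes. Without wild type replicate 1 there were 9 raised genes, and without double mutant replicate 1 there were 18 lowered genes.

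nspg-7.2, a nematode-specific peptide gene, had 16.6 and 15.7 CPM in the double mutant, 0.362 and 0.225 CPM in egl-9(lf), and 0.361 and 0.0849 CPM in the wild type (log2 fold change 5.89, SE 0.34, adjusted p = 1.3e-07). best-1, which encodes a bestrophin chloride channel, had 13.1 and 12.1 CPM in the double mutant, 1.87 and 1.73 CPM in egl-9(lf), and 2.30 and 2.21 CPM in the wild type (log2 fold change 2.47, SE 0.20, adjusted p = 1.1e-05). For both, the double mutant stood apart from 3 strains at a common low level. adh-1, an alcohol dehydrogenase gene, had 463 and 359 CPM in the double mutant, 146 and 45.5 CPM in egl-9(lf), and 106 and 54.9 CPM in the wild type (log2 fold change 2.34, SE 0.45, adjusted p = 0.0058), with replicates that differed widely within the 2 other strains. The adh-1 call was lost without double mutant replicate 1 (adjusted p = 0.054) or wild type replicate 2 (adjusted p = 0.080), and with robust estimation of the spread (adjusted p = 0.14). pugs-11 and T22F3.11, on chromosome V, rose by 3.98 and 3.27 on the log2 scale, and the choline kinase gene ckb-2 by 1.63.

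The lowered genes included enzymes and pumps that handle foreign compounds. ugt-13, a UDP-glucuronosyltransferase gene, had 0.976 and 1.24 CPM in the double mutant, 14.3 and 10.7 CPM in egl-9(lf), 17.5 and 19.8 CPM in egl-9(lf) hif-1(lf), and 16.8 and 17.9 CPM in the wild type (log2 fold change -3.97, SE 0.25, adjusted p = 9.3e-07). ugt-41 had 7.298 and 5.59 CPM in the double mutant, 63.6 and 45.7 CPM in egl-9(lf), and 51.6 and 39.3 CPM in the wild type (log2 fold change -2.82, SE 0.22, adjusted p = 5.8e-06). Double-mutant libraries lay below all others for both. C29F3.7 fell by 3.45 on the log2 scale, and cdr-2, of the cadmium-responsive gene family, by 2.49. pgp-5, which encodes a P-glycoprotein transporter, had 0.617 and 1.55 CPM in the double mutant, 9.64 and 10.6 CPM in egl-9(lf), 28.2 and 38.4 CPM in egl-9(lf) hif-1(lf), and 4.02 and 8.41 CPM in the wild type, and its call was lost without double mutant replicate 1 (adjusted p = 0.075). More abundant members were spig-20, with 69.6 and 52.6 CPM in the double mutant and 183 and 209.1 CPM in the wild type, and the aspartyl protease gene asp-14, with 52.8 and 50.6 CPM in the double mutant and 140 and 145 CPM in the wild type. In egl-9(lf), asp-14 had 135 and 125 CPM and spig-20 had 178 and 213 CPM.

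**Figure D4:**
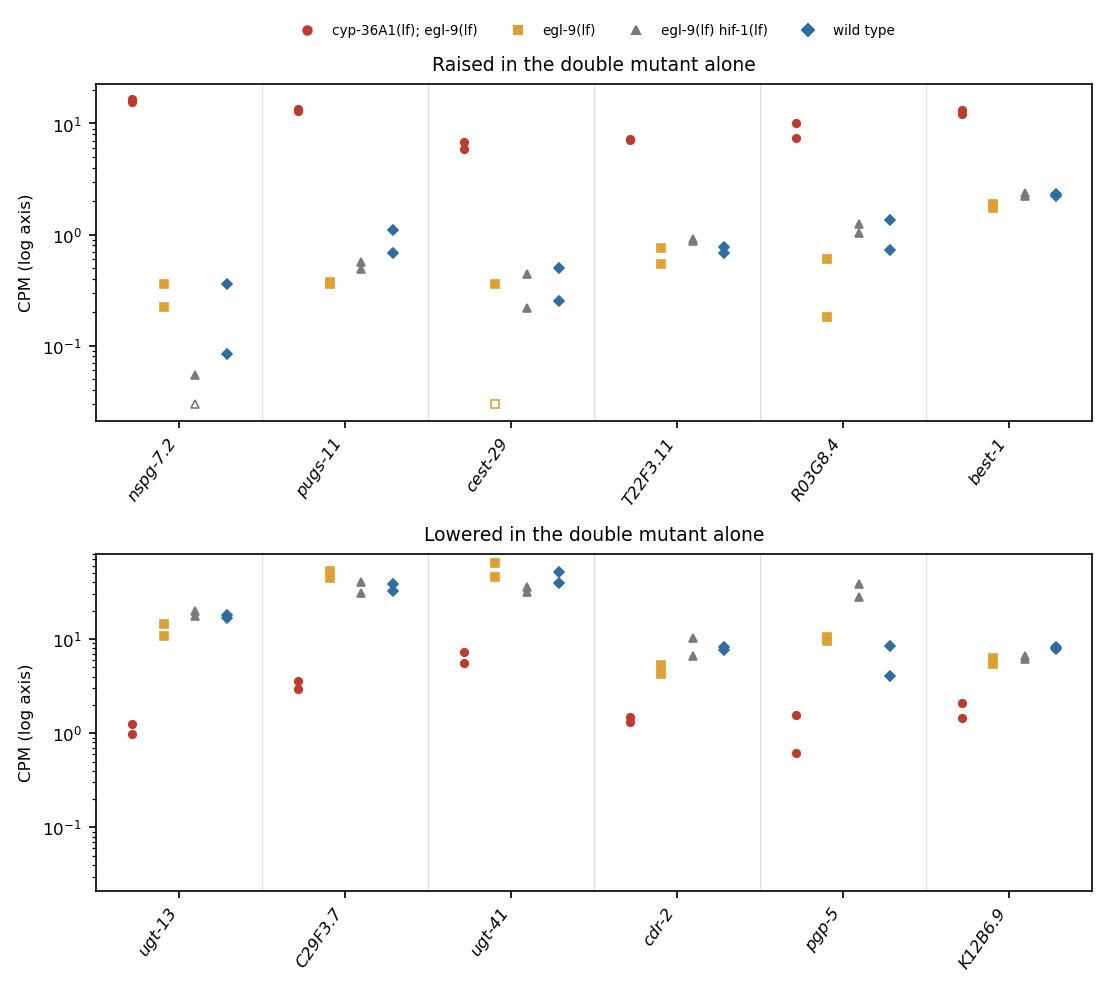
CPM on a log axis for genes raised and genes lowered in the double mutant alone, by library, with the strains in the order double mutant, egl-9(lf) alone, with hif-1(lf) added, and wild type; open markers at the lower edge are libraries with no counts. The double mutant stands above the other strains in the raised panel, as for nspg-7.2 at 16.6 and 15.7 CPM, and below them in the lowered panel, as for ugt-13 at 0.976 and 1.24 CPM.

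Of the listed detoxification families, the UDP-glucuronosyltransferases and the cytochrome P450 genes had 22.4% and 19.2% of members lower, beside 4.74% of all tested genes, and the glutathione S-transferases 11.4%. The shares that were higher were 5.97%, 2.56% and 9.09%, beside 1.98%. Of 67 UDP-glucuronosyltransferase genes, 15 were lower and 4 higher in the double mutant than in the wild type, with a median log2 fold change of -0.57, and in egl-9(lf) 11 were lower and 3 higher. Of 78 cytochrome P450 genes, 15 were lower and 2 higher, with a median of -0.65, and in egl-9(lf) 15 were lower and 6 higher. Fewer P450 genes were lower, and fewer higher, in each fit without a library of the 2 strains. Calls over all tested genes were fewer in those fits too. For the UDP-glucuronosyltransferase genes, 2 were higher without wild type replicate 2 or double mutant replicate 1. The median over all tested genes was 0. The P450 genes that fell included cyp-35A5 and cyp-35C1 of the inducible cyp-35 family, by 2.51 and 2.11 on the log2 scale. Of 44 glutathione S-transferase genes 5 were lower and 4 higher: gst-10 had 56.3 and 47.2 CPM in the double mutant, against 171 and 190 CPM in the wild type (log2 fold change -1.80, SE 0.18, adjusted p = 4.7e-05), and gst-4, a common reporter of oxidative stress, had 11.3 and 11.6 CPM in the double mutant, against 38.6 and 37.97 CPM in the wild type (log2 fold change -1.74, SE 0.20, adjusted p = 0.0002). Of 15 P-glycoprotein genes 6 were lower and none higher, and of 9 wht genes of the ABC transporter family 5 were lower and none higher. In each fit without a library of the 2 strains these counts were smaller. There were 3 lower P-glycoprotein genes, or 1 without double mutant replicate 1. There were 2 or 3 lower wht genes, or none without double mutant replicate 1. No member of the antioxidant enzyme list (12 genes) or the endoplasmic reticulum chaperone list (15 genes) was called by edgeR or DESeq2. In these lists 4 and 2 members had an unadjusted p under 0.05, beside 25.9% of all tested genes.

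Immune genes went in both directions. Of 13 effectors listed as dependent on the p38 kinase PMK-1, 12 were higher in egl-9(lf) than in the wild type, while in the double mutant 4 were higher and 2 lower, and 7 were lower in the double mutant than in egl-9(lf). Their summed level was 780.5 and 702.2 CPM in the double mutant, 2075 and 2020 CPM in egl-9(lf), and 346.2 and 290.6 CPM in the wild type. The 4 that stayed higher were clec-60, clec-67, C17H12.8 and dod-24, and the 2 lower were irg-5 and T24B8.5. The clec-67 call was lost without either wild-type library or double mutant replicate 2 (adjusted p up to 0.20). dod-24, which encodes a CUB-domain protein, had 281 and 280 CPM in the double mutant, 485 and 525 CPM in egl-9(lf), and 60.5 and 59.4 CPM in the wild type (log2 fold change 2.23, SE 0.14, adjusted p = 8.8e-07). C17H12.8, a related gene, had 141 and 138 CPM in the double mutant, 74.7 and 76.2 CPM in egl-9(lf), and 18.1 and 22.7 CPM in the wild type, and its difference between the double mutant and egl-9(lf) did not pass the test (log2 fold change 0.89, adjusted p = 0.15). None of 7 genes of the p38 pathway itself was called in the double mutant by edgeR or DESeq2. Of these 3 had an unadjusted p under 0.05, beside 25.9% of all tested genes. Of 210 C-type lectin genes 14 were higher (6.67%) and 19 lower (9.05%), beside 1.98% and 4.74% of all tested genes, with a median of -0.04. The lower lectin genes were fewer in each fit without a library of the 2 strains, as were the lower genes over all tested.

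**Figure D5:**
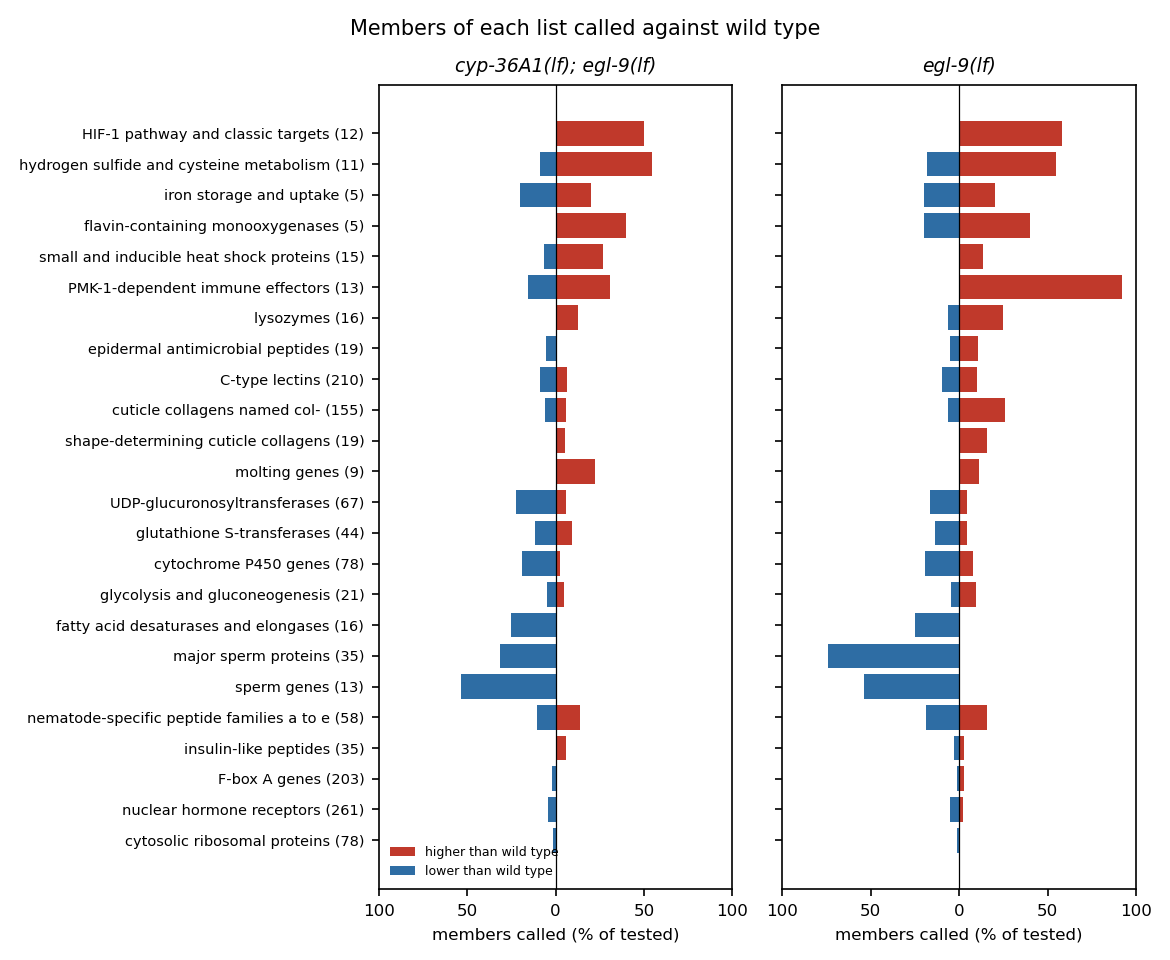
For each gene list with a call in the double mutant, the share of its tested members that were called higher (to the right) or lower (to the left) against the wild type, as a percentage of tested members, with the double mutant in the left panel and egl-9(lf) in the right. PMK-1-dependent effectors have 4 of 13 higher in the double mutant and 12 of 13 in egl-9(lf), while sperm genes have 7 of 13 lower in each. Both panels share the wild-type libraries.

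Over all tested genes 1.98% were higher and 4.74% lower, and the other lists are read beside these shares. Larger shares were called among desaturases and elongases (25% lower), nematode-specific peptides (13.8% higher, 10.3% lower), lysozymes (12.5% higher) and molting genes (22.2% higher). Of 18 oocyte and eggshell genes none was called by edgeR or DESeq2. Of them 17 had an unadjusted p under 0.05, beside 25.9% of all tested genes, and the median log2 fold change was 0.44. None of 30 FMRFamide-like peptide genes or 24 saposin-like genes was called by either tool, with 3 and 5 at an unadjusted p under 0.05. One saposin-like gene was called lower without either egl-9(lf) hif-1(lf) library. Of 16 fatty acid desaturase and elongase genes 4 were lower and none higher, fat-7 among them. Without double mutant replicate 1 the calls of elo-4, elo-7 and elo-8, which encode fatty acid elongases, were lost (adjusted p = 0.065, 0.094 and 0.13). In the other fits 1 gene of the list was left without wild type replicate 2 or double mutant replicate 2, and 2 without wild type replicate 1. Of 58 nematode-specific peptide genes of the families a to e, 8 were higher, 6 of them nspe genes, and 6 were lower. Without wild type replicate 1 or 2, 5 were higher, all nspe genes, and 2 or 3 were lower, and none was lower without double mutant replicate 2. Of 16 lysozyme genes 2 were higher, of which lys-4 had 22.7 and 20.4 CPM in the double mutant, 35.02 and 41.5 CPM in egl-9(lf), and 9.57 and 9.85 CPM in the wild type (log2 fold change 1.15, SE 0.16, adjusted p = 0.00076). Leaving out wild type replicate 1 left 1 lysozyme gene higher. Of 9 molting genes 2 were higher, mlt-10 at a log2 fold change of 3.91 and nas-36. The nas-36 call was lost without any single library of the 2 strains (adjusted p up to 0.28). Of 19 shape-determining cuticle collagens 1, sqt-3, was higher, at 2.41. Of 21 genes of glycolysis and gluconeogenesis 1, pck-1, was higher and 1 was lower. At an unadjusted p under 0.05 there were 18 of the 21, beside 25.9% of all tested genes. Their median log2 fold change was 0.46, so most differences were under 2-fold. No gene of this list was lower in any fit without a library of the 2 strains, and 2 were higher without wild type replicate 2 or double mutant replicate 2. The few calls among insulin-like peptide genes (2 of 35 higher), F-box A genes (4 of 203 lower), epidermal antimicrobial peptide genes (1 of 19 lower) and cytosolic ribosomal protein genes (1 of 78 lower) were not firm. In fits without 1 library of the 2 strains there were 0 or 1 insulin-like genes higher, 1 to 3 F-box A genes lower (7 without either egl-9(lf) hif-1(lf) library) and no ribosomal protein gene lower. Of the antimicrobial peptide genes 3 were lower without double mutant replicate 1, and 2 were higher without double mutant replicate 2. Among 261 nuclear hormone receptor genes, 2 were higher (0.766%), nhr-57 among them, and 11 lower (4.21%, median log2 fold change -0.22), both under the shares of all tested genes. The lower genes numbered 4, 7, 5 and 6 without wild type replicate 1, wild type replicate 2, double mutant replicate 1 and double mutant replicate 2.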

How the data were processed

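Polyadenylated RNA of 4 strains was sequenced by the authors as single-end reads. Per the labels and the study's methods, reads were quantified with RSEM 1.2.15 and Bowtie 1.0.1 against the ce10 genome and an Ensembl annotation, and the submitters' processing notes also name BWA 0.7.5a, SAMtools 0.1.19 and bedtools 2.17.0. The authors deposited expected counts per gene, not normalized between libraries, in which reads shared by similar genes are divided, so near-identical genes are uncertain. The deposited table also holds the authors' FPKM, which was not used for tests. Expected counts were rounded, since 36.1% of those above 0 were not whole. Of 45461 gene IDs, 44897 matched RefSeq (WBcel235), which supplied names, chromosomes and gene order but no coordinates, and 23688 had no counts.

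The 21372 IDs with at least 1 rounded count in any library entered one edgeR 4.0.16 model under R 4.3.3 (TMM, estimateDisp, glmQLFit, glmQLFTest) with a mean per strain over 8 libraries, with Benjamini-Hochberg adjustment. The revised estimate of glmQLFit (legacy=FALSE, prior degrees of freedom 7.80) was used, since the default gave an infinite prior. Standard errors were the log2 fold change divided by the root of its F statistic. A fold against a strain at 0 used 3 counts over the group, and count ratios have exact 95% binomial intervals, for counting error only.

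Replicates were separate populations. Same-numbered libraries deviated together in all 6 pairs of strains (correlation 0.1267 to 0.3552 over 12719 genes of mean CPM at least 1). The main model does not pair them, since it has no replicate block, as the methods name none. A block that pairs libraries of the same number was an alternative. Others were DESeq2 1.42.0, scaling, filters, thresholds and each library left out.

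Members, gene lists and rules were chosen with earlier results of these data known. Genes named were the targeted and reporter genes, those of largest change with at least 5 CPM in each class and up to 4 called members of each list. Those of largest change were named only where both double-mutant libraries lay above, or both below, the wild-type libraries. Another 36 named genes, and the members listed in runs, were chosen after their values were seen.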

Additional observations from a re-analysis of the deposited data

How the results depend on the processing

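No named gene past an adjusted p of 0.05 reversed direction under any alternative. Of those without a call, log2 fold changes with a library left out were -0.55 to 1.45 for cyp-36A1, 0 to 0.14 for nhr-46 and -0.12 to 0.17 for ilys-5, each past 0 in the other direction in 1 fit and not past the threshold there. Of 141 named genes past an adjusted p of 0.05, 30 missed the threshold of at least 1 alternative. With each library left out in turn, genes higher in the double mutant than in the wild type numbered 180 to 450 and genes lower 438 to 1128, persisting rises 132 to 309, persisting falls 329 to 869, rises that passed below 6 to 15, falls that passed above 4 to 8, and genes raised or lowered in the double mutant alone 9 to 20 and 18 to 41. A fit with a library left out has 1 sample in 1 strain, assumed to vary like the others. With the replicate block, which pairs libraries of the same number, 482 genes were higher and 1241 lower, 331 rises and 934 falls persisted, 16 passed below, 8 passed above, and 25 were raised and 52 lowered in the double mutant alone, and no named gene lost its call. The default estimate gave 21 rises that passed below and 34 raised and 78 lowered in the double mutant alone, and in it cyp-36A1 (adjusted p = 0.0039, log2 fold change 0.73) and lys-7 (0.017) were past the threshold. DESeq2 gave 5 falls that passed above, and in it irld-35 had an adjusted p of 0.05, with C17B7.10, C17B7.3 and gst-29 at 0.11, 0.059 and 0.089. An adjusted p under 0.01 left 263 higher and 574 lower, 185 persisting rises and 436 persisting falls, 4 that passed above and 24 lowered alone. Without the fold threshold the counts were 1009, 1597, 665 and 1231, with 19 that passed below. Robust estimation ended the calls of MTCE.33, F44E5.4, adh-1, cbs-1 and clec-67 (adjusted p = 0.12, 0.29, 0.14, 0.064 and 0.078). Other causes of these changes were not tested. Scaling and filter alternatives kept each of these 8 counts within 1.5 times. At this depth, genes of a few counts give wide intervals, and a gene without a call was not shown to be unchanged.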
